A study of Homo sapiens with 6 samples.

Results

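The interleukin-1 (IL-1) family of cytokines and receptors was measured in NOZ-R cells, which were made resistant to gemcitabine, a nucleoside analogue, by exposure to doses raised in steps, and in NOZ cells, the parental human line from gallbladder cancer. The 10 genes IL1A, IL1B, IL1RN, IL18, IL33, IL1R1, IL1RAP, IL18R1, IL1RL1 and MYD88, listed by name, were read from a count table of 63140 genes, with 3 libraries of poly-A RNA from NOZ-R and 3 from NOZ. The labels give no dose, no time, no drug state at harvest and not whether NOZ-R is 1 clone. Nor do they call the replicates separate cultures. The p-values therefore reflect the spread among libraries, and that spread may be technical.

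IL-1 alpha and IL-1 beta (IL1A and IL1B) bind the receptor IL1R1, which then recruits the accessory chain encoded by IL1RAP, while the antagonist encoded by IL1RN occupies IL1R1 without that recruitment. IL-18 and IL-33 act through IL18R1 and IL1RL1. All of these receptors signal through the adaptor MYD88, the IRAK kinases and TRAF6 to NF-kappaB and MAP kinases. IL-1 beta and IL-18 are made as precursors that caspase-1 cleaves in inflammasomes, whereas the IL-1 alpha precursor is already active, and epithelial cells hold IL-1 alpha and IL-18 ready made.

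The 4 promoter windows below run from 250 bases before to 50 bases after a RefSeq gene start on GRCh38.p14. They belong to the agonists, the antagonist and the adaptor, and are shown because the transcripts behind them are set against each other below. Capitals mark matches on either strand to 5 motifs: an NF-kappaB site (GGG and TTTCC with 2 free bases between), an interferon-stimulated response element (GAAA and GAAA with 2 free bases between), an AP-1 site (TGA and TCA with 1 free base between), a C/EBP site (TTGC and AAT with 2 free bases between) and a TATA box (TATAAA). The files do not tell which start was used where a gene has several.
IL1A, chr2:112784444-112784743, minus strand: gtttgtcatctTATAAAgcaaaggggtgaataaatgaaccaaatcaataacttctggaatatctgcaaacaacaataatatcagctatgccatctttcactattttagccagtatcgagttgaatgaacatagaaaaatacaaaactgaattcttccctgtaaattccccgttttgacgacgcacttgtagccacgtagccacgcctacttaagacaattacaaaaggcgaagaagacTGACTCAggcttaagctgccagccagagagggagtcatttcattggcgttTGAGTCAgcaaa
IL1B, chr2:112836730-112837029, minus strand: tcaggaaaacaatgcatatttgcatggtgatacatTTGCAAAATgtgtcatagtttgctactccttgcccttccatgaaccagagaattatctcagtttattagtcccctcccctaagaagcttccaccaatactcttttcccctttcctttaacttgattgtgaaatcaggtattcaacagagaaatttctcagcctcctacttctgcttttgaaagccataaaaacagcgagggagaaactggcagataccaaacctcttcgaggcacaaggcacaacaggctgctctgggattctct
IL1RN, chr2:113127348-113127647, plus strand: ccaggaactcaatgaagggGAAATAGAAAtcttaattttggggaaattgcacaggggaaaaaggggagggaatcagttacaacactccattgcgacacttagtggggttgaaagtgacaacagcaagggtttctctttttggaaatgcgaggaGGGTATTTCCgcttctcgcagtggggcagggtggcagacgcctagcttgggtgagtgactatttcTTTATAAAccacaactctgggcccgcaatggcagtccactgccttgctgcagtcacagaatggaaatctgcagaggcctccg
MYD88, chr3:38138411-38138710, plus strand: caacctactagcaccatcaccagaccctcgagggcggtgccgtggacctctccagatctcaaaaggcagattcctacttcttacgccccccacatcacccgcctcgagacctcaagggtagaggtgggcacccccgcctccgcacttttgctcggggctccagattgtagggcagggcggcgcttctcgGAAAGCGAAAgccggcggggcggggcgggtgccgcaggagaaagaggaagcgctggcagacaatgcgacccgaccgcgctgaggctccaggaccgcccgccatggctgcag

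The IL1A window held 2 AP-1 matches, whose first bases lie at -12 and 38 relative to the start, and 1 TATA match at -239. The IL1B window held 1 C/EBP match at -215. The printed IL1RN window held 1 NF-kappaB match at -97, 1 interferon-stimulated element at -231 and overlapping forward and reverse TATA matches at -30 and -32. IL1A and IL1RN had further windows, not printed. Those overlapping the printed ones held the same AP-1 letters for IL1A and the same NF-kappaB and interferon-stimulated letters for IL1RN. The IL1RN window at chr2:113117721-113118020 held 1 AP-1 match alone. In the MYD88 window the single match was to the interferon-stimulated element, at -61. Among 35116 windows of the same length, 1.91% held the NF-kappaB letters, 3.57% the interferon-stimulated element, 7.71% AP-1, 2.66% C/EBP and 11.5% TATA. A match describes letters in the window and is not a measured binding site.

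Library totals ran from 14136037 to 19244923 counts. Between replicates, the mean chi-square per gene was 2.19 to 4.10 for pairs without NOZ replicate 2 and 9.83 and 11.2 for its pairs with NOZ replicates 3 and 1, so that library stood apart. Of 8 epithelial markers, all tested, 4 were higher and 3 lower, and they summed to 3305 to 3399.9 CPM in NOZ-R and 2432 to 2926 CPM in NOZ. Keratins carried that sum. KRT7, KRT8, KRT18 and MUC1 were higher. Lower were EPCAM, with a mean of 49.5 CPM in NOZ-R and 73.1 CPM in NOZ, CLDN4, with 76.8 and 145.9 CPM, and CDH1. CDH1, the epithelial cadherin, had only 5, 2 and 7 counts in NOZ-R libraries, against 26, 14 and 15 counts in NOZ libraries. It entered the test through its NOZ libraries alone, which favours a call in that direction. Over the genome, edgeR's quasi-likelihood test called 60.2% of 14386 tested genes, 4379 higher and 4284 lower. Scaled by library size alone, 3316 were higher and 5468 lower, with a median log2 fold change over all genes of -0.14, against -0.01 as reported.

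Transcripts of the IL-1 branch were higher in NOZ-R: both agonists, the signalling receptor, its accessory chain and the adaptor. In bulk RNA, a change in the number of expressing cells and in the RNA per cell cannot be told apart. Over the 10 members, 5 were higher (30.4% of all tested genes were) and 0 lower (29.8%), with 0 lower also at an unadjusted p under 0.05 in edgeR and in DESeq2. IL18 did not pass and 4 members had too few counts for the test. IL1R1 entered the test through its NOZ-R libraries alone, which favours a call in that direction. Of the 5 members that passed the low-count filter in both lines, 4 were higher, with a median log2 fold change of 0.84, against 30.4% higher, 31.0% lower and a median of -0.01 among the 12564 genes that passed it in both lines. In 5 of the 6 tested members, among them IL1R1 with 0 counts in NOZ, every NOZ-R library lay above every NOZ library in CPM. Of all tested genes 32.9% did so. The same held for IL1RN, which was not tested.

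**Figure D1:**
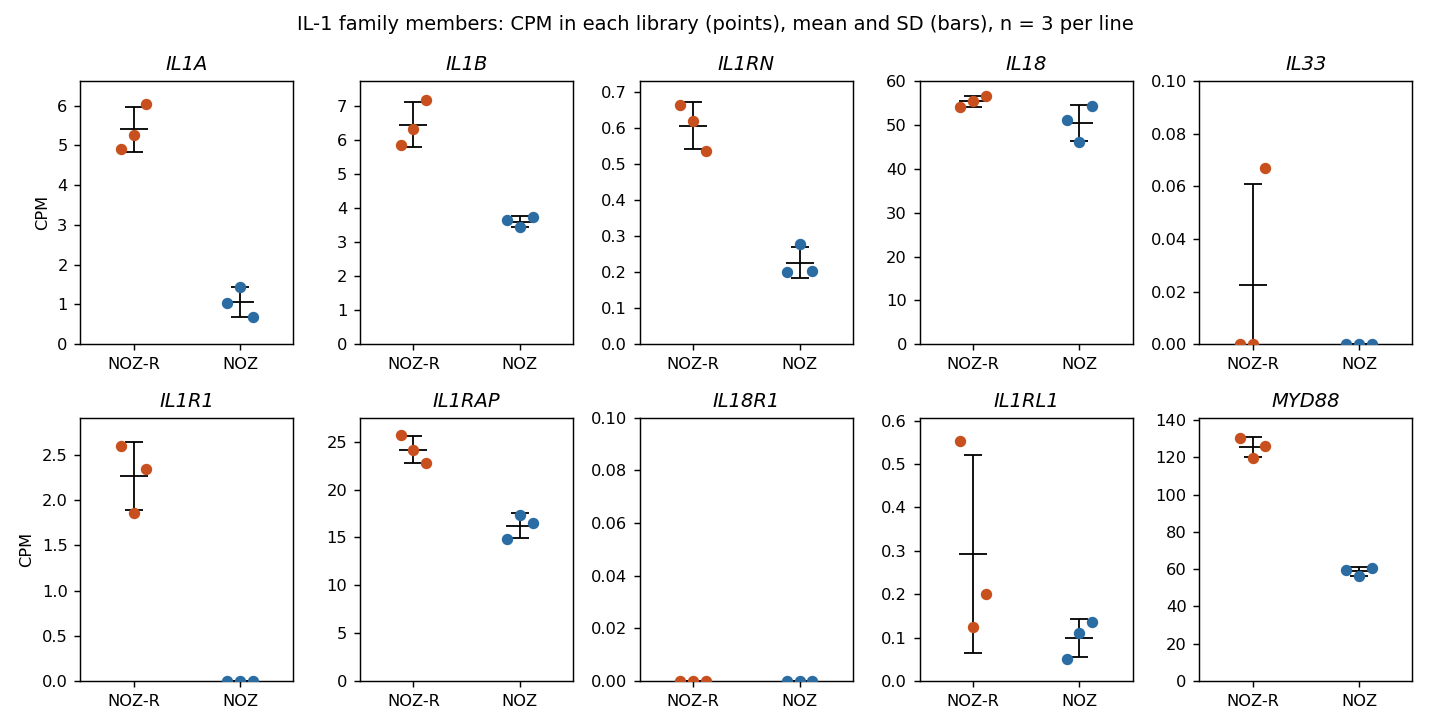
Counts scaled to library size (CPM, with TMM factors) of the 10 members in every library, NOZ-R left and NOZ right in each panel, with mean and SD (n = 3 per line); axes start at 0 and differ between panels. IL1A, IL1B, IL1RN, IL1R1, IL1RAP and MYD88 have all NOZ-R points above all NOZ points, IL18 and IL1RL1 overlap, IL33 has 1 count in all and IL18R1 none.

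IL1A (chromosome 2, 112773915 to 112784590, minus strand; GRCh38 here and below) encodes IL-1 alpha, an alarmin that epithelial cells release on damage. It measured 4.92, 5.27 and 6.03 CPM in NOZ-R libraries, against 1.05, 1.44 and 0.677 CPM in NOZ libraries. The lowest NOZ-R library stood far above the highest NOZ library, and the NOZ values, from 21, 26 and 10 counts, were the more uneven set relative to their mean. IL1A averaged 5.41 ± 0.571 CPM in NOZ-R and 1.06 ± 0.382 CPM in NOZ (SD, n = 3 each). The difference passed (log2 fold change 2.32, SE 0.237, adjusted p = 1.69e-06 by edgeR) and was 2.13 to 2.60 on the log2 scale when 1 library at a time was left out.

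IL1B (chromosome 2, 112829751 to 112836903, minus strand) encodes IL-1 beta, the secreted inflammatory agonist, and lies 45.2 kb from IL1A. It measured 5.86, 6.32 and 7.17 CPM in NOZ-R libraries, against 3.64, 3.43 and 3.72 CPM in NOZ libraries. The lines did not overlap, and the NOZ libraries lay close together. The difference of 1.79-fold passed (log2 fold change 0.84, SE 0.153, adjusted p = 0.000333 by edgeR), but not a test against a 2-fold change.

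The agonists stood in opposite order in the lines in FPKM only. In CPM, IL1A was below IL1B in every library of both lines. Per length, IL1A was at 1.25, 1.24 and 1.25 times the FPKM of IL1B in NOZ-R libraries, and at 0.429, 0.626 and 0.271 times in NOZ libraries. On the log2 scale this ratio averaged 0.32 ± 0.0071 in NOZ-R and -1.26 ± 0.604 in NOZ (SD, n = 3 each). In FPKM, IL1A exceeded IL1B in every NOZ-R library and was below it in every NOZ library. That order rests on the fixed lengths behind the FPKM, 2017 bases for IL1A and 3009 for IL1B. The lengths cancel in the difference of the log2 ratio between the lines. For that difference an exact permutation test over libraries gave p = 0.1 (two-sided), the smallest value that 3 against 3 allow.

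IL1RN (chromosome 2, 113107214 to 113134016, plus strand), the receptor antagonist, was rare. It had 12, 10 and 8 counts in NOZ-R libraries, against 4, 5 and 3 counts in NOZ libraries, too few for the main test. All NOZ-R libraries were above all NOZ libraries in CPM, and the summed counts of 30 against 12 give a CPM ratio of 2.69, with a 95% exact counting interval of 1.34 to 5.77. Without the low-count filter its log2 fold change of 1.39 did not pass (adjusted p = 0.0771, edgeR, where 14.8% of 31615 genes were higher), although limma on log2(FPKM + 1) without a filter called it (adjusted p = 0.0294, limma, with 9.18% of genes higher). In FPKM it averaged 0.155 ± 0.0170 in NOZ-R and 0.0634 ± 0.0123 in NOZ (SD, n = 3 each), below both agonists in each line.

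IL18 (chromosome 11, 112143251 to 112164117, minus strand), the interleukin that induces interferon gamma in lymphocytes, was the most abundant cytokine of the family in both lines. It measured 54.1, 55.4 and 56.7 CPM in NOZ-R libraries, against 51.1, 46.2 and 54.4 CPM in NOZ libraries, and the lines overlapped. The difference did not pass (log2 fold change 0.13, SE 0.0741, adjusted p = 0.137 by edgeR). Set against the median of chromosome 11, -0.09, it was 0.22 and passed (adjusted p = 0.0222, edgeR), while scaling by library size alone gave 0.0042.

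IL33 (chromosome 9, 6215786 to 6257983, plus strand), an alarmin of barrier tissues, had 1 count over the NOZ-R libraries and 0 over the NOZ libraries. A count of 0 over the 3 NOZ libraries allows up to 0.0568 CPM, for counting error only.

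Among the receptors, IL1R1 (chromosome 2, 102064544 to 102179874, plus strand) had 47, 30 and 35 counts in NOZ-R libraries, against 0, 0 and 0 counts in NOZ libraries. Every NOZ-R library held reads and no NOZ library did. This was 2.60, 1.86 and 2.35 CPM in NOZ-R, with a mean of 2.27 ± 0.376 CPM (SD, n = 3). In CPM it was 40.1 times the floor of 3 counts over the NOZ libraries (adjusted p = 1.60e-06 for the difference between the lines, edgeR). IL1R1 shares 11 exon bases with the antisense gene IL1R1-AS1, and as no strand marking is described, reads there could belong to either.

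IL1RAP (chromosome 3, 190514051 to 190659750, plus strand), the accessory chain for the receptors of IL-1 and IL-33, was present in both lines. It measured 25.7, 24.1 and 22.8 CPM in NOZ-R libraries, against 14.8, 17.3 and 16.5 CPM in NOZ libraries, with no overlap. The 1.49-fold difference passed (log2 fold change 0.58, SE 0.0937, adjusted p = 0.00012 by edgeR), but not against a 2-fold change. Its exons share 535 bases with AC108747.1, a long noncoding gene on the same strand.

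The receptors for IL-33 and IL-18 were at or near 0. IL1RL1 (chromosome 2, 102311502 to 102352037, plus strand), also known as ST2, had 10, 2 and 3 counts in NOZ-R libraries, against 1, 2 and 2 counts in NOZ libraries. NOZ-R replicate 1 held most of those counts and the lines overlapped. The CPM ratio of 3.23 had a 95% exact counting interval of 1.11 to 11.3, and without the filter the gene did not pass (adjusted p = 0.236, edgeR). IL18R1 (chromosome 2, 102311529 to 102398775, plus strand), which shares 95 exon bases with IL1RL1, had 0 counts in all 6 libraries, which allows up to 0.0610 CPM in NOZ-R and 0.0568 CPM in NOZ.

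MYD88 (chromosome 3, 38138478 to 38143022, plus strand), the adaptor of the family and of most Toll-like receptors, had the lowest adjusted p of the members. It measured 130.5, 119.7 and 126 CPM in NOZ-R libraries, against 59.6, 56.2 and 60.8 CPM in NOZ libraries. The lowest NOZ-R library lay far above the highest NOZ library. MYD88 averaged 125 ± 5.38 CPM in NOZ-R and 58.9 ± 2.37 CPM in NOZ (SD, n = 3 each), and the 2.13-fold difference passed (log2 fold change 1.09, SE 0.0636, adjusted p = 6.52e-09 by edgeR). The test against a 2-fold change did not call it (adjusted p = 0.234, edgeR), while IL1A passed that test, which called 5.89% of all tested genes higher. IL1R1 passed it too, but had entered through NOZ-R alone with 0 counts in NOZ.

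**Figure D2:**
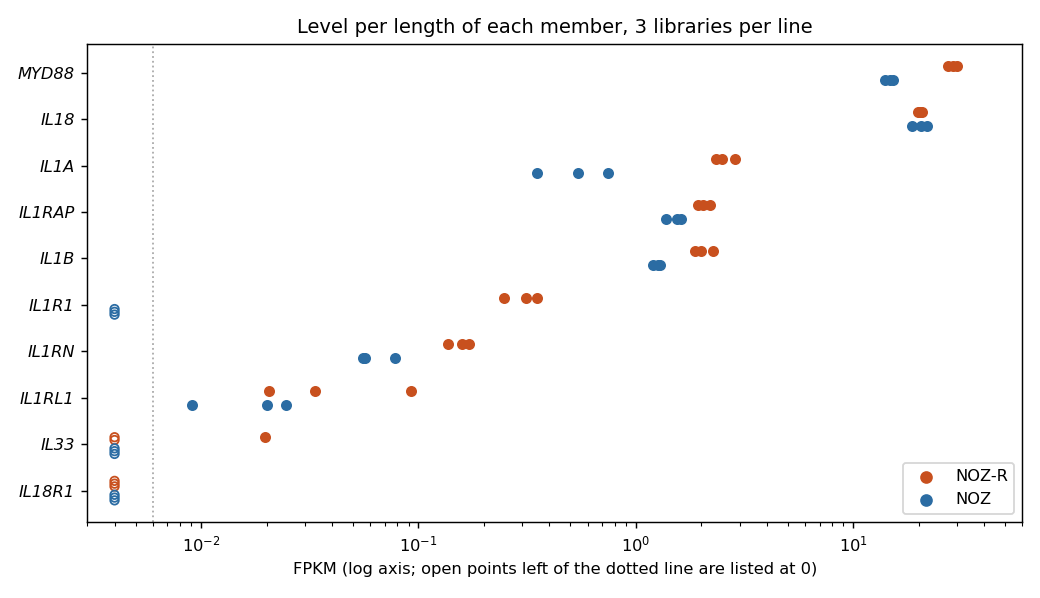
FPKM of each member (log axis) in the 3 libraries of each line, NOZ-R drawn above NOZ in each row and rows ordered by the NOZ-R mean; open points left of the dotted line are listed at 0. MYD88 and IL18 lie above 10 FPKM, the NOZ-R points of IL1A, IL1RAP and IL1B lie together from 1.87 to 2.85 FPKM, and IL1R1, IL1RN and IL1RL1 lie below 1 FPKM.

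Ordered by FPKM in NOZ-R, MYD88 came first at 28.6 ± 1.33 and IL18 next at 20.3 ± 0.392 (SD, n = 3 each). IL1A at 2.56 ± 0.262, IL1RAP at 2.06 ± 0.130 and IL1B at 2.05 ± 0.205 followed, and IL1RAP and IL1B did not differ beyond their spread. IL1R1 was at 0.304 ± 0.0515 FPKM. In NOZ the order was IL18 at 20.3 ± 1.63, MYD88 at 14.7 ± 0.572, IL1RAP at 1.51 ± 0.123, IL1B at 1.25 ± 0.0504 and IL1A at 0.546 ± 0.198 FPKM (SD, n = 3 each), with no overlap between neighbours. Within a library, MYD88 was at 1.499, 1.34 and 1.38 times the FPKM of IL18 in NOZ-R and at 0.725, 0.757 and 0.695 times in NOZ. The leading genes thus stood in opposite order in the lines in FPKM, which divides by 4190 bases for MYD88 and 2605 for IL18. In CPM, MYD88 was above IL18 in every library of both lines. The log2 ratio of the 2 genes differed by 0.96 between the lines (exact permutation p = 0.1, two-sided, the smallest possible).

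Of the other ligands and their inhibitors, IL18BP alone had enough counts to be tested. IL36A, IL36B, IL36G, IL36RN and IL37, further cytokine genes of chromosome 2, had 5 counts at most in a library, and IL1F10 had 0 in all. IL18BP, the secreted inhibitor of IL-18, measured 5.47, 4.34 and 6.71 CPM in NOZ-R libraries, against 4.39, 6.48 and 4.20 CPM in NOZ libraries. Its lines overlapped and it did not pass (log2 fold change 0.12, SE 0.203, adjusted p = 0.623 by edgeR), and its sign turned under 4 alternatives. IL18BP exons share 675 bases with NUMA1 on the opposite strand, so its counts are uncertain. SIGIRR, a receptor of the family that restrains signalling, measured 19.1, 22.3 and 21.9 CPM in NOZ-R libraries, against 23.1, 20.2 and 24.5 CPM in NOZ libraries, which overlapped (log2 fold change -0.10, SE 0.0995, adjusted p = 0.413 by edgeR); it passed in 1 of 21 alternatives, the GC correction.

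Other receptors had too few counts to be tested. IL1RL2, which binds IL-36, had 6, 4 and 7 counts in NOZ-R libraries, against 0, 0 and 0 counts in NOZ libraries. In CPM this was 6.09 times the floor of 3 counts over NOZ. The decoy receptor IL1R2 had 8, 1 and 0 counts in NOZ-R libraries, against 0, 0 and 0 counts in NOZ libraries, nearly all in replicate 1. IL1RAPL1, a neuronal relative of IL1RAP, had 10, 1 and 1 counts in NOZ-R libraries, against 17, 26 and 8 counts in NOZ libraries, a CPM ratio of 0.253 (95% exact counting interval 0.123 to 0.481) with overlapping libraries. IL18RAP and IL1RAPL2 never exceeded 2 counts.

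Of 20 genes for maturation and release of the cytokines, 14 were tested, of which 7 were higher, 3 lower and 4 did not pass. CASP1, the protease that activates IL-1 beta and IL-18, measured 12.9, 12.8 and 14.7 CPM in NOZ-R libraries, against 3.10, 2.71 and 4.27 CPM in NOZ libraries. Every NOZ-R library lay above every NOZ library (log2 fold change 2.02, SE 0.159, adjusted p = 1.32e-07 by edgeR). The inflammasome sensor NLRP1 rose by 2.06 on the log2 scale (adjusted p = 5.31e-06, edgeR). NLRP3, another sensor, had 48, 45 and 38 counts in NOZ-R libraries, against 8, 6 and 1 counts in NOZ libraries, a CPM ratio of 9.39 (95% exact counting interval 5.49 to 17.3), and it entered the test through NOZ-R alone.

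GSDMD, the pore through which mature IL-1 beta leaves the cell, measured 63.9, 70.6 and 63.1 CPM in NOZ-R libraries, against 46.4, 41.1 and 49.3 CPM in NOZ libraries. The lines did not overlap (log2 fold change 0.53, SE 0.0803, adjusted p = 6.56e-05 by edgeR). Lower in NOZ-R were CAPN1, a calpain protease (log2 fold change -0.58, adjusted p = 4.06e-05, edgeR), the inflammasome sensor CARD8 (-0.47, adjusted p = 0.000726, edgeR) and the gasdermin GSDME (-0.46, adjusted p = 0.000586, edgeR). CAPN2, the list's other calpain, was higher (log2 fold change 0.51, adjusted p = 2.89e-07, edgeR). It averaged 1231 CPM in NOZ-R and 867 CPM in NOZ. PYCARD, also of this list, did not pass (-0.45, adjusted p = 0.0553, edgeR), though all its NOZ-R libraries lay below all NOZ libraries. CAPN1, CARD8 and PYCARD share exon bases with genes on the opposite strand. The GSDME call was lost against the median of chromosome 7, -0.30 (log2 fold change -0.16, adjusted p = 0.14, edgeR). Of the untested genes, CASP5 and NLRP6 had 0 counts throughout, and AIM2, NLRC4 and P2RX7 never exceeded 4. MEFV, which encodes the inflammasome sensor pyrin, had 9, 5 and 16 counts in NOZ-R libraries, against 0, 0 and 0 counts in NOZ libraries. In CPM this was 10.8 times the floor of 3 counts over NOZ. Among the 12 genes of this list that passed the filter in both lines, 6 were higher and 3 lower, with a median log2 fold change of 0.31, against 30.4% higher and 31.0% lower of all such genes.

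**Figure D3:**
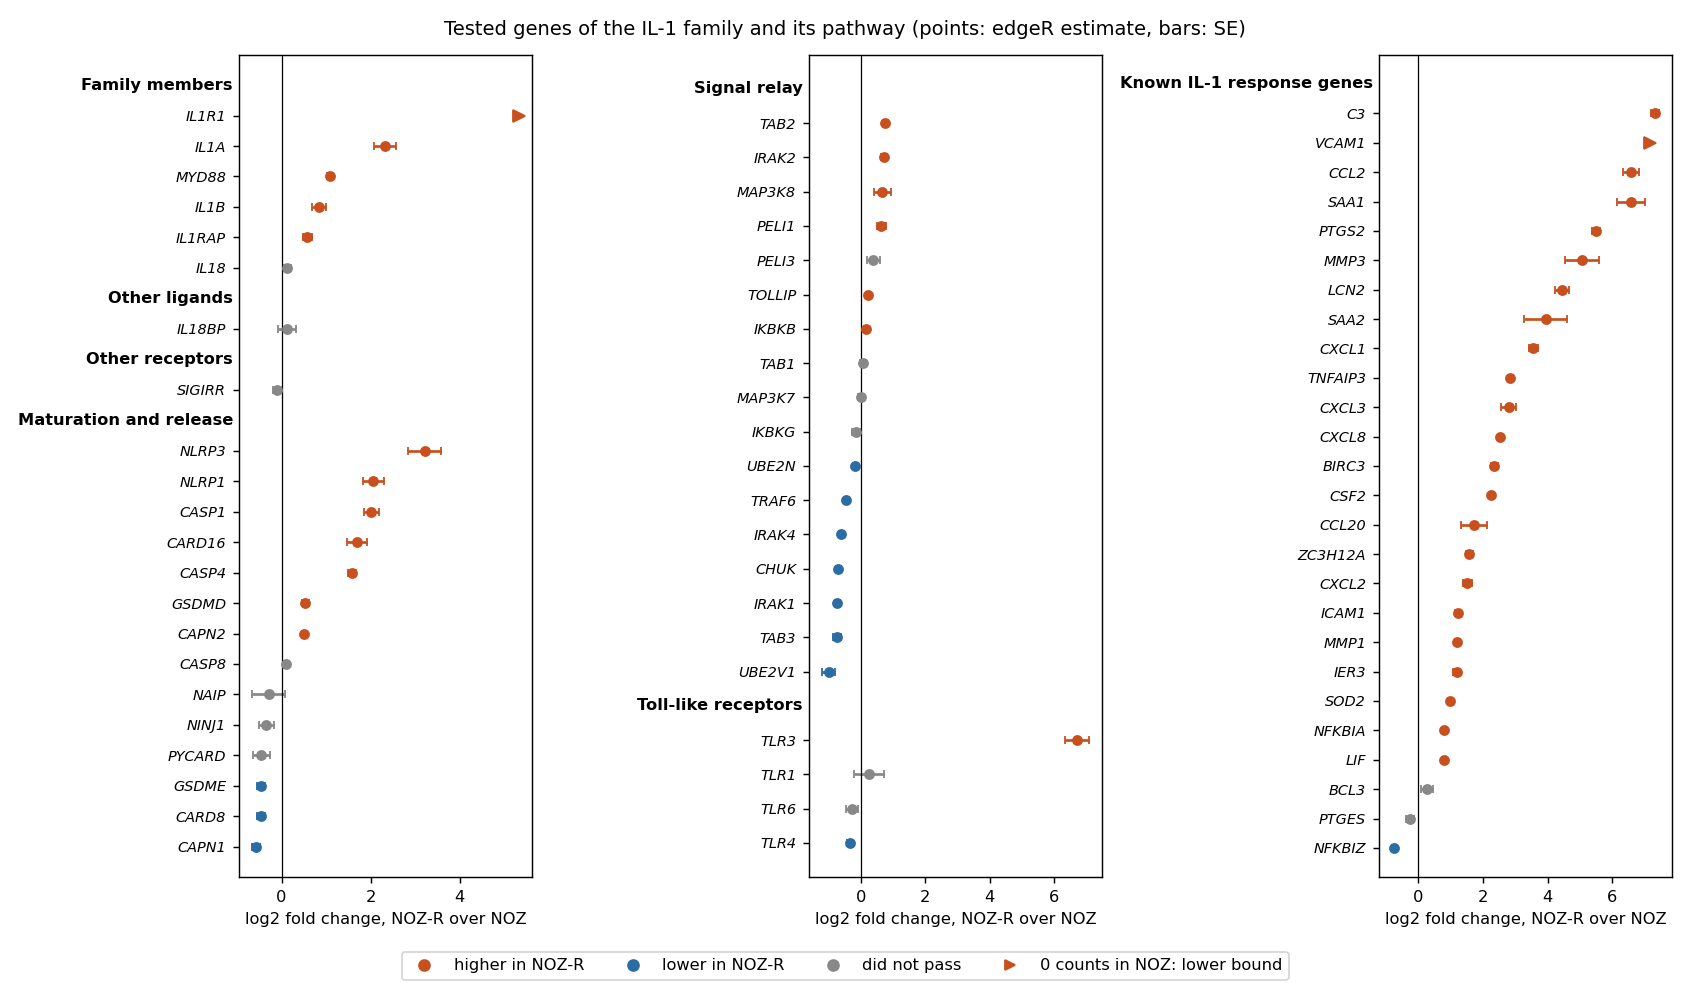
Log2 fold change (NOZ-R over NOZ, bars SE) of each tested member and pathway gene, grouped by role; horizontal scales differ between panels, and triangles are lower bounds for genes at 0 in NOZ. Of 26 response genes 23 are called higher, while the signal relay holds 6 called higher and 7 called lower.

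The relay downstream of MYD88 held calls in both directions. Of 19 genes, 17 were tested, all through both lines, with 6 higher, 7 lower, 4 that did not pass and a median log2 fold change of 0.02. The background was 30.4% higher and 31.0% lower among genes that passed the filter in both lines, whose median was -0.01. IRAK4, the kinase that binds MYD88 directly, measured 25.4, 25.6 and 28.2 CPM in NOZ-R libraries, against 39.3, 41.5 and 39.1 CPM in NOZ libraries (log2 fold change -0.60, SE 0.0779, adjusted p = 1.64e-05 by edgeR). IRAK1, the next kinase, measured 245, 243 and 236 CPM in NOZ-R libraries, against 414, 351 and 425 CPM in NOZ libraries (log2 fold change -0.72, SE 0.0681, adjusted p = 8.55e-07 by edgeR). Against the median of chromosome X, -0.44, the IRAK1 difference was -0.27 and still passed (adjusted p = 0.00391, edgeR). TRAF6, the ubiquitin ligase after it, fell by 0.44 on the log2 scale (adjusted p = 0.000204, edgeR). In each of these 3 genes all NOZ-R libraries lay below all NOZ libraries, the reverse of MYD88.

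Set against its partner in the same library, MYD88 was at 8.95, 8.14 and 7.78 times the FPKM of IRAK4 in NOZ-R and at 2.64, 2.36 and 2.71 times in NOZ. The log2 ratio differed by 1.69 (exact permutation p = 0.1, two-sided, the smallest possible). TAB2, an adaptor of the kinase TAK1, rose by 0.77 (adjusted p = 3.59e-07, edgeR) and IRAK2 by 0.73 (adjusted p = 2.17e-05, edgeR) on the log2 scale. The kinase MAP3K8 had a log2 fold change of 0.67 (adjusted p = 0.0415, edgeR), with overlapping libraries and a call lost in 11 of 21 alternatives. UBE2V1, a ubiquitin-conjugating enzyme variant, fell by 0.99 (adjusted p = 0.000807, edgeR) but shares 2066 exon bases with the read-through gene TMEM189-UBE2V1. TAB3, a relative of TAB2 on chromosome X, fell by 0.73 (adjusted p = 0.00017, edgeR), a call lost against that chromosome's median of -0.44 (adjusted p = 0.0635, edgeR).

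Genes that IL-1 is known to induce were mostly higher. Of 31 genes, 26 were tested, with 23 higher, 1 lower and 2 that did not pass, and 7 of the 26 entered through NOZ-R alone. Among the 19 that passed the filter in both lines, 16 were higher and 1 lower, with a median log2 fold change of 1.53, against 30.4% higher, 31.0% lower and a median of -0.01 over all genes that passed it in both lines. CXCL8, the neutrophil chemokine IL-8, measured 104, 114 and 112 CPM in NOZ-R libraries, against 18.5, 19.8 and 18.6 CPM in NOZ libraries, without overlap (log2 fold change 2.53, SE 0.0715, adjusted p = 4.12e-12 by edgeR). Many of these genes also respond to other inducers of NF-kappaB. The list was assembled with earlier results of these libraries known, so its count is not independent evidence of a direction.

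The largest fitted increases of that list were in VCAM1, C3 and CCL2. The adhesion molecule VCAM1 had 136, 149 and 109 counts in NOZ-R libraries, against 0, 0 and 0 counts in NOZ libraries. In CPM this was 141 times the floor of 3 counts over NOZ. Complement C3 measured 220.4, 227 and 214 CPM in NOZ-R libraries, against 0.999, 1.94 and 1.22 CPM in NOZ libraries (log2 fold change 7.31, SE 0.126, adjusted p = 5.31e-14 by edgeR). The monocyte chemokine CCL2 had 373, 321 and 314 counts in NOZ-R libraries, against 2, 8 and 1 counts in NOZ libraries, a CPM ratio of 98.5 (95% exact counting interval 54.8 to 198), and like VCAM1 entered the test through NOZ-R alone. The fitted log2 fold change of CCL2 was 6.57 and became 7.78 without NOZ replicate 2, which held most of the NOZ counts. In each of the 3, no NOZ library came near a NOZ-R library. NFKBIZ, an NF-kappaB regulator that IL-1 is known to induce, was the gene called lower, at 84.1, 77.3 and 79.5 CPM in NOZ-R libraries, against 129.7, 140.0 and 128 CPM in NOZ libraries (log2 fold change -0.72, SE 0.0633, adjusted p = 3.76e-07 by edgeR).

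Of the 10 Toll-like receptor genes, most of whose products share MYD88, 4 were tested, with 1 higher and 1 lower, against 30.4% higher and 29.8% lower of all tested genes. TLR4, the receptor for lipopolysaccharide, measured 48.9, 48.2 and 49.6 CPM in NOZ-R libraries, against 59.4, 70.7 and 55.6 CPM in NOZ libraries, all NOZ-R libraries below all NOZ libraries (log2 fold change -0.34, SE 0.0857, adjusted p = 0.00353 by edgeR). Against the median of chromosome 9, -0.64, its sign turned, at 0.29 on the log2 scale, and it was called higher. TLR3, which senses double-stranded RNA and signals without MYD88, had 131, 103 and 96 counts in NOZ-R libraries, against 0, 2 and 1 counts in NOZ libraries, a CPM ratio of 118 (95% exact counting interval 40.1 to 577), and entered the test through NOZ-R alone. Its fitted log2 fold change was 6.71, and became 7.53 without NOZ replicate 2 and 6.09 without NOZ replicate 1. TLR2, TLR8 and TLR9 had 0 counts in every library.

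**Figure D4:**
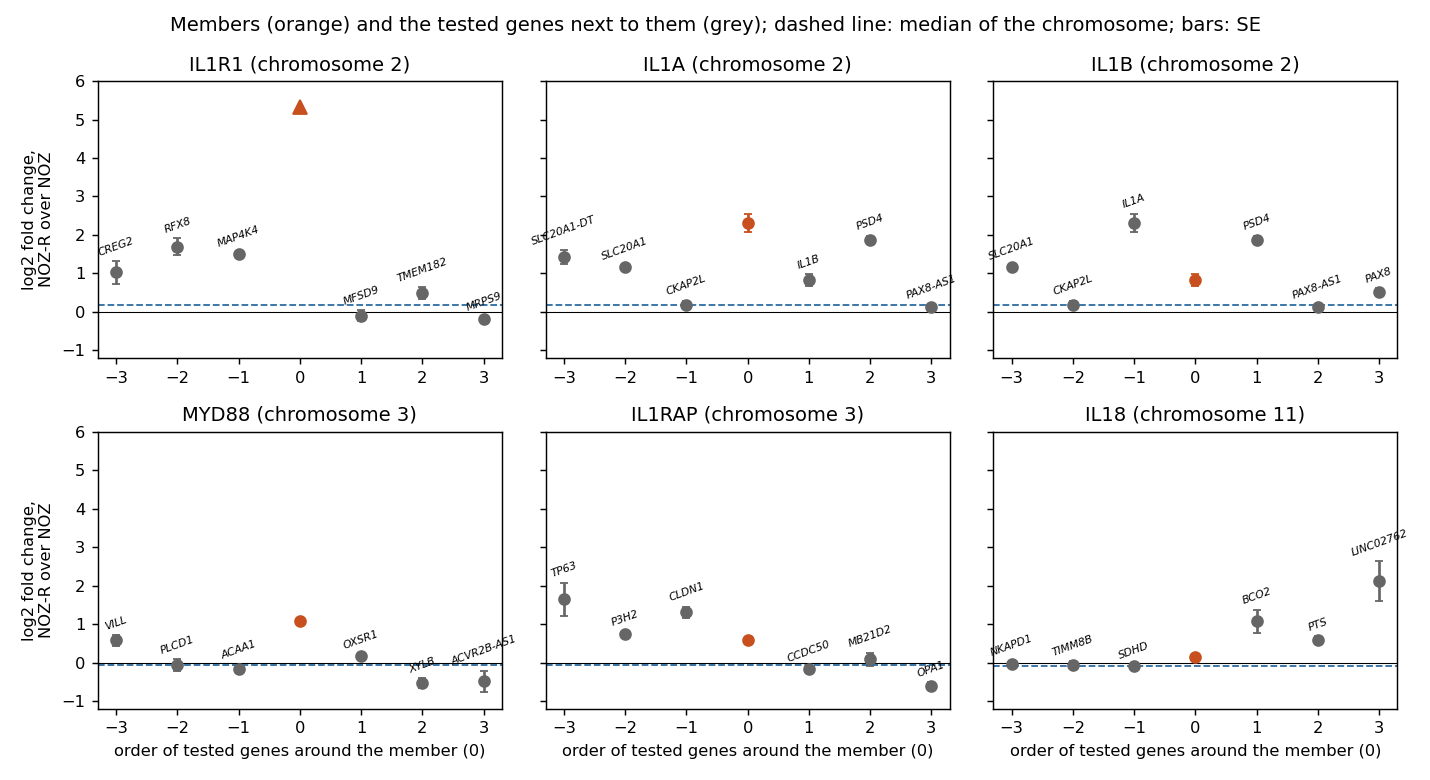
Log2 fold change (NOZ-R over NOZ, bars SE) of 6 members, in orange, and of the 3 nearest tested genes on each side, in grey, in chromosomal order; the dashed line is the chromosome's median and the triangle a lower bound for IL1R1. MYD88 stands above its 6 neighbours, and IL1RAP lies below TP63, P3H2 and CLDN1 and above the 3 genes on its other side.

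The tested genes beside the members differed among themselves. On chromosome 2, with a median log2 fold change of 0.18, CKAP2L lies 9.24 kb from IL1A and was at 0.19, which did not pass. SLC20A1, on the same side, rose by 1.16 (adjusted p = 1.19e-10, edgeR), and PSD4, 23.3 kb from IL1RN, by 1.88 (adjusted p = 3.02e-09, edgeR). MAP4K4, 169.9 kb from IL1R1 on one side, rose by 1.499 (adjusted p = 3.32e-11, edgeR), while MFSD9, 536 kb away on the other, was at -0.09 and did not pass. ACAA1, 1.24 kb from MYD88, was at -0.15 and did not pass. Beside IL1RAP, CLDN1 was higher at 1.31 and CCDC50 lower at -0.17, on a chromosome with a median of -0.07. All 6 tested neighbours of IL33 were lower, with log2 fold changes of -0.34 to -1.44, on chromosome 9, whose median was -0.64.

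For the called members at 10 CPM or more, the genes nearest in pattern were sought among 8955 genes by the distance between log2 CPM profiles over the 6 libraries. Nearest to MYD88 were PDLIM7, FYCO1 and SLC37A2, at 0.0562, 0.0631 and 0.0680. Nearest to IL1RAP were EIF4ENIF1, CTBP1 and HCG18, at 0.0826, 0.0871 and 0.124. Since the lines differ, such likeness is mainly a fold change of the same size.

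Markers of other cell types were measured beside the family. Of 13 monocyte and macrophage markers, 4 were tested, 3 of them through NOZ-R alone. Of the 4, 2 were higher, LYZ and CSF1R, both tested through NOZ-R alone, and 0 lower. Over all tested genes 30.4% were higher and 29.8% lower, the background also for the marker lists below. The monocyte and macrophage list summed to 7.38 to 9.18 CPM in NOZ-R and 4.15 to 7.14 CPM in NOZ. CD163 and FCGR3A had 0 counts in every library and CD68 at most 1, and PTPRC, carried by leukocytes, had 4, 2 and 5 counts in NOZ-R libraries, against 28, 14 and 7 counts in NOZ libraries. CD14 did not pass, at a mean of 3.29 CPM in NOZ-R and 2.93 CPM in NOZ (log2 fold change 0.16, adjusted p = 0.636, edgeR). ITGAM, not tested, had 8, 7 and 2 counts in NOZ-R libraries, against 0, 1 and 1 counts in NOZ libraries. Of 10 lymphocyte and mast cell markers, only CD79A was tested, and it was lower. The list summed to 1.77 to 2.66 CPM in NOZ-R and 5.10 to 9.44 CPM in NOZ, with MS4A1, KLRD1, TPSAB1 and KIT at 0 in all libraries. CD3E had 0, 0 and 1 counts in NOZ-R libraries, against 0, 0 and 4 counts in NOZ libraries.

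Of 7 endothelial markers, PECAM1 was higher (log2 fold change 2.29, adjusted p = 3.01e-08, edgeR), and the list summed to 9.29 to 10.2 CPM in NOZ-R and 2.64 to 3.39 CPM in NOZ, with no marker at 0 throughout. PECAM1 made up most of that sum, and the other 6 markers had too few counts to be tested, among them TEK with 2, 0 and 1 counts in NOZ-R libraries, against 12, 5 and 2 counts in NOZ libraries and CLDN5 with 0, 0 and 0 counts in NOZ-R libraries, against 2, 4 and 0 counts in NOZ libraries. Of 10 fibroblast markers, 5 were tested, of which 3 were higher, COL3A1, FAP and POSTN, all tested through NOZ-R alone. None was lower, against 30.4% higher and 29.8% lower of all tested genes. The fibroblast list summed to 11.6 to 12.8 CPM in NOZ-R and 3.15 to 3.72 CPM in NOZ. FAP, POSTN, DCN, LUM, COL1A2 and THY1 had 0 counts in every NOZ library. Of these, COL1A2 had only 3, 1 and 0 counts in NOZ-R libraries and THY1 only 1, 0 and 0. COL1A1 did not pass (log2 fold change -0.54, adjusted p = 0.0548, edgeR). The part of these markers in the IL-1 family values was not tested.

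**Figure D5:**
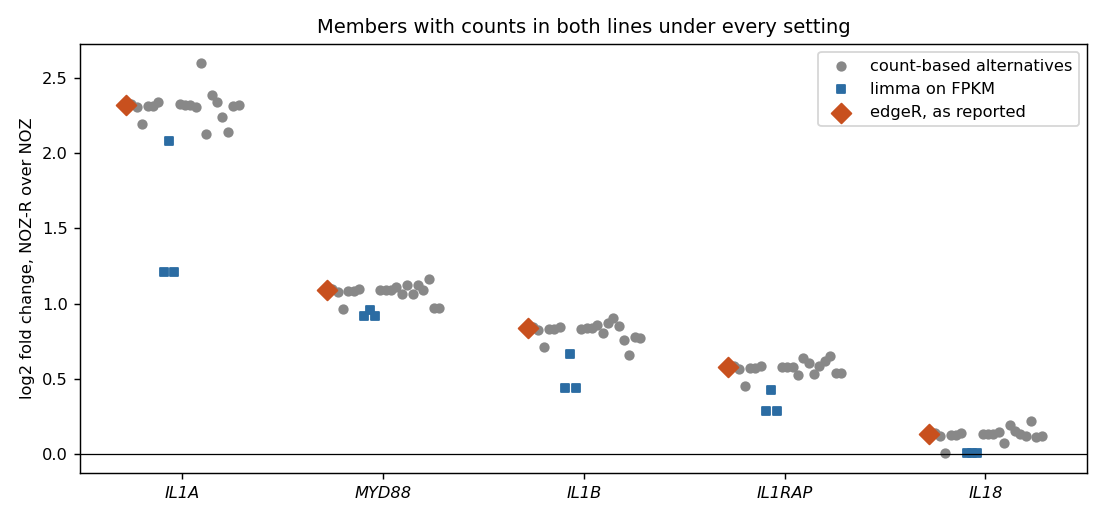
Log2 fold change (NOZ-R over NOZ) of the 5 members that passed the low-count filter in both lines, as reported (diamonds) and under 21 alternatives (circles from counts, squares from limma on deposited FPKM with a pseudocount). Every point lies above 0, and 2 of the 3 squares of IL1A, IL1B and IL1RAP lie well below the circles.

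The size of the differences depended on the scale. On log2(FPKM + 1), limma gave log2 fold changes of 1.21 for IL1A, 0.44 for IL1B, 0.29 for IL1RAP and 0.92 for MYD88. All 4 passed there too, as did IL1R1, at 0.38. The pseudocount lowers the fold change of a rare transcript, and FPKM also has no composition correction. With counts scaled by library size alone, MYD88, which is not rare, was at 0.96. The share of each in the smaller values was not tested.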

How the data were processed

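Poly-A RNA-seq of 3 NOZ-R and 3 NOZ libraries was grouped by sample title. The authors deposited raw counts per gene and a table of FPKM values. The submitters' processing notes name fastp 0.22.0 and GRCh38. Aligner, counting tool, strand setting and annotation release: not given in the sources used here. The deposited FPKM equals the count over the library total and 1 fixed length per gene, so it has no composition correction. The labels' protocols describe no strand marking and no molecular identifiers.

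The fit used edgeR 4.0.16 (R 4.3.3) on the counts of all 6 libraries: filterByExpr by line (minimum count 10), TMM scaling, quasi-likelihood test and Benjamini-Hochberg adjustment over 14386 tested genes at 0.05. CPM uses TMM-scaled library sizes. The SE is the log2 fold change over the square root of F. Floors are 3 counts over a line. Ratios to a floor, drawn as lower bounds, take the NOZ-R counts as measured and leave out their counting error. The 95% exact (Clopper-Pearson) intervals on count ratios and the floors cover counting error alone, as PCR duplicates cannot be recognised. Positions and exon overlaps came from GENCODE 29 (GRCh38), found for 13922 tested genes, and transcript GC for 96.7%. RefSeq promoter windows (GRCh38.p14) were found for 9 members.

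The 10 members, gene lists, motifs and tests were chosen with earlier results of these data known. Named were all members, the other ligands and receptors, up to 3 called increases and 3 decreases per pathway list, CASP1, GSDMD, IRAK1, IRAK4, TRAF6 and CXCL8, the nearest genes in pattern and position, and called or defining markers. CAPN2 and PYCARD were named after their values were seen, as were other genes with few or no counts. Alternatives used DESeq2 1.42.0, limma 3.58.1 on log2(FPKM + 1) and log2(FPKM + 0.1), other scalings and filters, a replicate block, a 0.01 threshold, a 2-fold test, left-out libraries, chromosome medians and a GC correction. The fit was tested on simulated counts with few genes changed, in equal numbers up and down, and 1 dispersion for all genes. In these data 60.2% of tested genes were called, so that test cannot check the scaling or error rates here. Tables and figures used Python 3.11.15, pandas 2.3.3 and matplotlib 3.10.9.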

Additional observations from a re-analysis of the deposited data

How the results depend on the processing

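IL1A, IL1R1, IL1B, IL1RAP and MYD88 kept their direction in all 21 alternatives, and their calls in all except the test against a 2-fold change. That test left 2 members higher, 24 pathway genes higher and 0 lower (0 also at an unadjusted p under 0.05, edgeR), and 847 genes higher and 442 lower over the genome. Limma on log2(FPKM + 1) with no filter called 2901 genes higher. Leaving out 1 library at a time gave 5 members higher each time, 35 to 37 pathway genes higher and 11 to 13 lower. IL18BP turned sign with scaling by library size (-0.0068), with GC correction (-0.016), with GC correction and a replicate block (-0.0096) and without NOZ-R replicate 3 (-0.0348), and reached 0.35 without NOZ replicate 2. TLR4 was 0.29 with chromosome medians removed, where the median is subtracted by construction. The other causes were not tested.

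The replicate block gave 5 members higher, and 4324 genes higher and 4180 lower. Same-numbered libraries showed no clear shared deviation (correlations of 0.07, -0.02 and -0.04). NOZ-R replicate 1 correlated best with its own number, whereas NOZ-R replicates 2 and 3 did not. These values cannot tell whether same-numbered libraries were handled together, and the labels do not say. Depth limits IL1RN, IL1RL1, IL33 and IL1R1, none of which exceeded 47 counts in a library.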
